A study of Homo sapiens with 35 samples.

Results

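The RNAs described here are the named long noncoding and antisense transcripts of DU145 cells, that is, the genes listed under a LINC number or under a name that ends in AS and a digit. They were chosen by name and by abundance: a gene had to carry such a name, to be quantified in every library and to reach a mean estimated count of 50 over 6 libraries. Of 28503 genes in the deposited table, 828 carried such a name and 150 met the rule, 111 with an antisense name and 39 with a LINC name. The other 678 lay under the minimum, 234 of them at 0 in every library. Just inside the minimum lay RBM12B-AS1 (mean 50.4), LINC00085 (51.6) and PSMD6-AS2 (53.4), and just outside it HOXA-AS4 (49.99), SLC7A11-AS1 (48.8) and DDX11-AS1 (48.4). All 150 passed the filter on low counts that precedes the test. For 8 of them the 2 libraries of 1 group decided the matter, since the other 4 libraries averaged under 50. Among these were LINC00941 (mean of the other 4 libraries 48.9) and LINC00942 (39.2), which passed through shZMYND8, and LINC00482 (32.1), which passed through shJARID1D, so the choice of members favoured a difference there.

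DU145 is an established prostate cancer line grown from a brain metastasis. Its RNA was sequenced after expression of a short hairpin RNA (shRNA, a transcript that lowers the messenger RNA it matches) against ZMYND8 (shZMYND8), against JARID1D (shJARID1D) or against luciferase, an enzyme that human cells lack (shLuciferase). Each group had 2 libraries and all were DU145 in the same medium, and the labels give neither the hairpin sequence nor a time after its delivery. Whether the 2 libraries of a group are separate cultures is not in the labels, and the p-values therefore reflect library-to-library spread alone, possibly technical. ZMYND8 is a chromatin reader with a PHD finger, a bromodomain and a PWWP domain, and JARID1D, encoded by the Y-linked gene KDM5D, is a demethylase of lysine 4 of histone H3.

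Long noncoding RNAs are transcripts that are not known to encode a protein, and many are spliced and polyadenylated like messenger RNAs. Antisense RNAs are transcribed from the strand opposite a protein-coding gene, often from the same promoter in the other direction, and may share regulatory elements with that gene. A LINC number marks an intergenic transcript, and the name by itself says nothing about function.

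The deposited counts of the genes used summed to 22090855 to 24179831 per library. ZMYND8 had 828 and 774 estimated counts in shZMYND8 cells, 1626 and 1486 in shJARID1D cells and 1520 and 1231 in shLuciferase cells. It fell in shZMYND8 cells against shLuciferase cells (log2 fold change -0.77 ± 0.13, SE, edgeR adjusted p = 0.00491), a call lost without shZMYND8 replicate 2 (adjusted p = 0.0581). KDM5D had 457 and 418 counts in shJARID1D cells, against 1364 and 1425 in shLuciferase cells (log2 fold change -1.67 ± 0.12, edgeR adjusted p = 0.000831). The epithelial markers KRT8, KRT18, KRT19, EPCAM and CDH1 were all well above the filter, with summed counts of 25683 to 28459 in shZMYND8 cells, 22466 to 26374 in shJARID1D cells and 31024 to 43469 in shLuciferase cells. Within that list EPCAM (log2 fold change -1.68) and KRT19 (-1.16) fell and CDH1 (1.01) rose in shZMYND8 against shLuciferase cells, and KRT8 (-0.86) and KRT18 (-0.67) fell in shJARID1D against shLuciferase cells, all at an edgeR adjusted p under 0.05. Their part in the members' changes was not tested. Sums of the markers of leukocytes, endothelium and fibroblasts reached at most 56.8, 21.2 and 20.3 counts in any library.

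The 150 RNAs together held 0.226% and 0.223% of the counts in the shZMYND8 libraries, 0.26% and 0.242% in the shJARID1D libraries and 0.226% and 0.216% in the shLuciferase libraries. The shJARID1D libraries thus lay above the other 4. These are shares of library totals. Under that scaling the median log2 fold change in shJARID1D against shLuciferase cells was 0.089 over all genes tested and 0.232 over the members. Most members were scarce: their median mean count was 148.5, against 791 for genes tested with a mean count of 50 or more. Over all 15867 genes tested, which include scarcer ones, it was 514. Of the members, 90 lay under 200 and 5 reached 1000. LINC00657 and C17orf76-AS1 alone made up 30% of the members' counts.

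LINC00657, now named NORAD, a cytoplasmic RNA that binds PUMILIO proteins, was the most abundant by count, with 8733 and 9629 counts in shZMYND8 cells, 11160 and 10924 in shJARID1D cells and 10485 and 8661 in shLuciferase cells. Next came C17orf76-AS1, now SNHG29, a host of small nucleolar RNAs, with a range of 5536 to 6836 counts over the 6 libraries. FGD5-AS1 ranged over 2897 to 3787 counts. LINC00674 (1305 to 1841) and OIP5-AS1 (1387 to 1860), known as cyrano in zebrafish and as a partner of miR-7 in mammals, followed. None of these 5 passed the threshold in any comparison, and the largest of their log2 differences was -0.32 ± 0.14 (LINC00674 in shZMYND8 against shLuciferase cells, edgeR adjusted p = 0.154).

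Names in the table are of an older annotation. Against the RefSeq gene table of GRCh38.p14, 112 members were current symbols, 37 were synonyms and 1 (FBXO22-AS1) found no match. RefSeq now classes 139 as long noncoding RNAs, 2 as transcribed pseudogenes and 8 as protein-coding, among them LINC00116 (now MTLN), LINC00493 (SMIM26), NCBP2-AS2 (NCBP2AS2) and TOPORS-AS1 (SMIM27), which encode small proteins, and LINC00094 (BRD3OS) and MMP24-AS1 (MMP24OS). Now named as divergent transcripts, 10 members start beside a coding gene and run away from it. A protein-coding gene overlapped 98 members, 7 of them with a LINC name.

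In shZMYND8 cells 10 of the 150 members rose and 7 fell against shLuciferase cells, at an edgeR quasi-likelihood adjusted p under 0.05. In bulk libraries more cells that make an RNA and more RNA per cell cannot be told apart. That is 6.67% higher and 4.67% lower, under the share of all genes tested, of which 8.89% were called higher and 7.34% lower (9.35% and 8.65% of genes with a mean count of 50 or more). Members were also measured with less precision, with a median standard error of 0.21 on the log2 scale against 0.14 for genes with a mean count of 50 or more. Their median log2 fold change was 0.07, against -0.01 over all genes tested. The libraries of the 2 groups did not overlap for 86 members (57.3%), against 57.8% of all genes tested. Without the 8 members that owe the minimum to 1 group, 8 of 142 rose and 6 fell. Of the 39 LINC members 4 rose and 5 fell, against 6 and 2 of the 111 antisense-named members, a difference that was not tested. Among the LINC members that moved, LINC00941, LINC00942 and LINC00482 owe the minimum to 1 group. LINC members were also more abundant (median mean count 189.1, against 132.8) and more precisely measured (median standard error 0.185, against 0.212). Leaving out shZMYND8 replicate 2 gave 4 higher and 1 lower, and leaving out shZMYND8 replicate 1 gave 4 and 0 (13 members were lower there at an unadjusted p under 0.05).

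**Figure D1:**
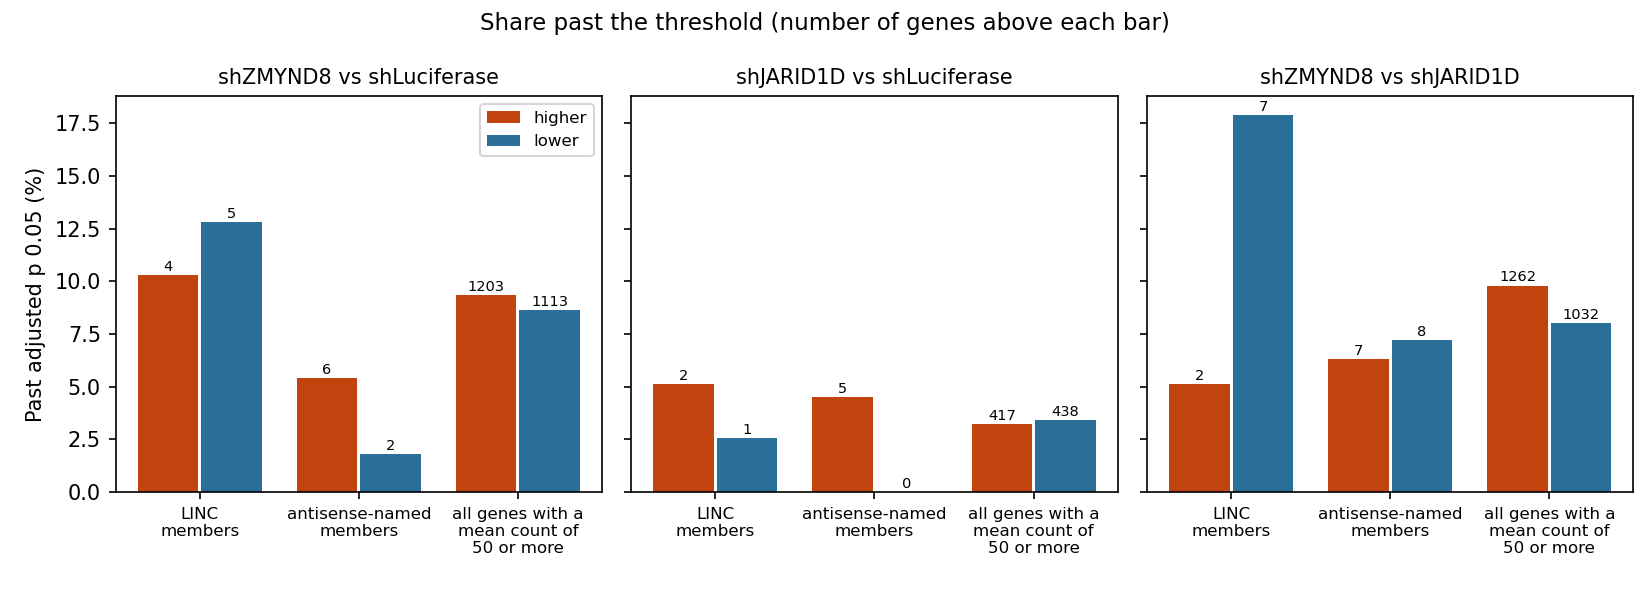
Share of genes past an adjusted p of 0.05 (vertical axis, percent) among the 39 LINC members, the 111 antisense-named members and all genes with a mean count of 50 or more, with the number of genes above each bar, in the 3 comparisons. In shZMYND8 against shLuciferase cells 5 LINC members (12.8%) were lower, against 2 antisense-named members (1.8%) and 8.65% of genes with a mean count of 50 or more. In shZMYND8 against shJARID1D cells 7 LINC members (17.9%) were lower, against 8 antisense-named members (7.21%) and 8.02% of genes with a mean count of 50 or more. These differences were not tested, and LINC members were more abundant and more precisely measured. LINC00482, among the lower LINC members in both, is a member only through its shJARID1D libraries.

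The largest fitted rises among the members past the threshold were of 3 intergenic RNAs. LINC00942 and LINC00941 are members only through their shZMYND8 libraries, so their place at the top describes the choice of members as well as the knockdown. LINC00942, on chromosome 12 between ERC1 and FBXL14, had 101.5 and 92.6 counts in shZMYND8 cells, 54.7 and 51.0 in shJARID1D cells and 20.9 and 30.1 in shLuciferase cells. The 3 groups did not overlap, and the rise in shZMYND8 over shLuciferase cells was 3.81-fold (log2 fold change 1.93 ± 0.28, edgeR adjusted p = 0.00241). LINC00941, studied in several carcinomas and located on chromosome 12 between CAPRIN2 and TSPAN11, had 158 and 159.5 counts in shZMYND8 cells, 32.8 and 60.3 in shJARID1D cells and 50.3 and 52.1 in shLuciferase cells. It was 3.13-fold higher in shZMYND8 than in shLuciferase cells (log2 fold change 1.64 ± 0.28, edgeR adjusted p = 0.00469), with both shZMYND8 libraries far above the other 4. LINC00842, on chromosome 10 between ANXA8L1 and NPY4R, had 321 and 352 counts in shZMYND8 cells, 152 and 118 in shJARID1D cells and 143 and 126 in shLuciferase cells, a rise of 2.51-fold over shLuciferase (log2 fold change 1.33 ± 0.18, edgeR adjusted p = 0.00184). Its region carries near copies of several genes, between which estimated counts divide reads, so its values are uncertain. These 3 calls held without each library in turn, and under every other alternative tried.

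**Figure D2:**
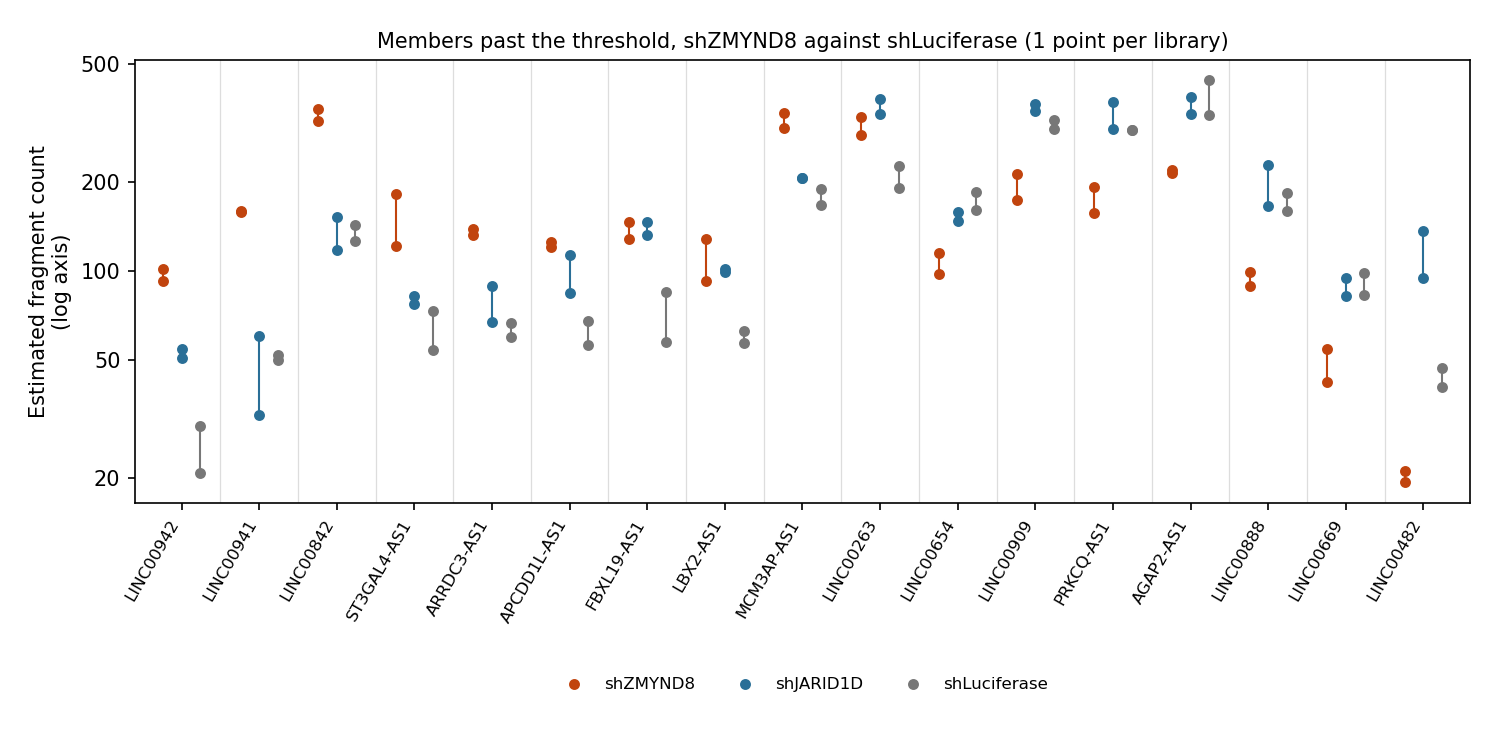
Estimated fragment counts (log axis) of the 17 members past the threshold in shZMYND8 against shLuciferase cells, ordered by fold change, with 1 point per library and the libraries of a group joined by a line. LINC00942, LINC00941 and LINC00842 stand at the left with shZMYND8 counts of 92.6 to 352, and LINC00482 at the right with 19.4 and 21.2.

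The windows around the annotated starts of 5 RNAs, chosen after their values were seen, are shown to let their base composition be compared: 250 bases before and 50 after the start, from RefSeq (GRCh38.p14), written 5′ to 3′ on the RNA's strand with CG dinucleotides in capitals. LINC00942, LINC00941 and LINC00842 rose in shZMYND8 cells. LINC00482 had log2 fold changes of opposite sign in the knockdowns, with the call of its fall in shZMYND8 cells lost under several settings. ARRDC3-AS1 was taken as an antisense RNA that rose with its sense gene and has a window. Of the 150 members, 123 had such a window in the table.
LINC00942 (chr12:1500241-1500540, plus strand): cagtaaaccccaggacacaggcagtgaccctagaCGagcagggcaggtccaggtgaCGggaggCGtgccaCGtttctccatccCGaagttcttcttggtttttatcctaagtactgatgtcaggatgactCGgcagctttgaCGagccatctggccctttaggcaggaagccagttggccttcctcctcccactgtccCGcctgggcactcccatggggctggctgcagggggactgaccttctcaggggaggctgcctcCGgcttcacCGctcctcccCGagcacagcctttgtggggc
LINC00941 (chr12:30795431-30795730, plus strand): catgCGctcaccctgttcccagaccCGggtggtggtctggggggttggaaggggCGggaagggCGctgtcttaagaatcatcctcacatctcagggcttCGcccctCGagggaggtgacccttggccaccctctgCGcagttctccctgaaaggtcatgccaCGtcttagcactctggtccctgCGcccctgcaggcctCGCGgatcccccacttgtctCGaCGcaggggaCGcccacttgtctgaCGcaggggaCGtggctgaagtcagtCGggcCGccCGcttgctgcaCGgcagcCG
LINC00842 (chr10:46398112-46398411, plus strand): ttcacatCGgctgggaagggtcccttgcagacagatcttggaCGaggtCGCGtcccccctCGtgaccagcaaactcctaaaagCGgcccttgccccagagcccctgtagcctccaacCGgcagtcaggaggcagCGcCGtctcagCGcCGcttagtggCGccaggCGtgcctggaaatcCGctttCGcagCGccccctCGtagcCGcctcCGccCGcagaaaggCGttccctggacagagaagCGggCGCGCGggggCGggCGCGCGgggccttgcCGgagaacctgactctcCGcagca
LINC00482 (chr17:81309199-81309498, minus strand): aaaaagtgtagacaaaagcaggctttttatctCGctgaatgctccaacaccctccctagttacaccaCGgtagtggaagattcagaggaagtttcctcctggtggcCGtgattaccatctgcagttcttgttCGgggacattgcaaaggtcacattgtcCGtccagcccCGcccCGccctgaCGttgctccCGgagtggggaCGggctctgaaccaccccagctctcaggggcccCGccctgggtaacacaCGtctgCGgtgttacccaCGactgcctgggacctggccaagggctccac
ARRDC3-AS1 (chr5:91380097-91380396, plus strand): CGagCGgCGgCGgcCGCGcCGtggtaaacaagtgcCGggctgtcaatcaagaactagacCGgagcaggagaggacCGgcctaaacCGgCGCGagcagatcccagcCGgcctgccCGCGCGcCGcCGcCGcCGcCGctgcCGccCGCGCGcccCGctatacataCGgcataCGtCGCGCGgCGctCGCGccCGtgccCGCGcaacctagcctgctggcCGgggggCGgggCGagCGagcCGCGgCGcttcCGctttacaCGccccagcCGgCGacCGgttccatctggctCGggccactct
The windows held 11 CG dinucleotides in LINC00942, 21 in LINC00941, 31 in LINC00842, 14 in LINC00482 and 51 in ARRDC3-AS1. The median was 14 over all 35116 windows in the table and 24 over the 162 windows of members, some of which have several. ARRDC3-AS1, whose window overlaps that of ARRDC3 on the other strand, had more CG dinucleotides than 99% of all windows, and LINC00942 more than 45.3%. A search on both strands for the letters TTCNNNGAA (STAT), TGANTCA (AP-1), GGAATG (TEAD) and CAGGTG (ZEB and SNAI E-box) found a single match in the 5 windows, a CAGGTG in LINC00942. Those letters occur in 7.66%, 7.71%, 14% and 20.6% of all windows, in that order.

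Antisense-named RNAs made up 6 of the 10 rises. ST3GAL4-AS1, now GSEC, an RNA that forms G-quadruplexes, had 183 and 122 counts in shZMYND8 cells, 77.6 and 82.4 in shJARID1D cells and 73.3 and 54.1 in shLuciferase cells (log2 fold change against shLuciferase 1.27 ± 0.27, edgeR adjusted p = 0.0112). ARRDC3-AS1, read from the start region of the arrestin-domain gene ARRDC3, had 133 and 139 counts in shZMYND8 cells, 89.5 and 67.3 in shJARID1D cells and 67.0 and 60.1 in shLuciferase cells (log2 fold change 1.1 ± 0.23, edgeR adjusted p = 0.0119). In each case the shZMYND8 libraries lay above all 4 others, which adds no support in RNAs chosen by their calls. MCM3AP-AS1, within the gene of the nuclear export factor MCM3AP, had 305 and 341 counts in shZMYND8 cells, 206 and 206 in shJARID1D cells and 190 and 167 in shLuciferase cells (log2 fold change 0.86 ± 0.16, edgeR adjusted p = 0.00662). APCDD1L-AS1 (log2 fold change 0.98), FBXL19-AS1 (0.94) and LBX2-AS1 (0.89) also rose, from counts of 56.5 to 85.2 in shLuciferase cells. LINC00263 rose by the least (0.58 ± 0.16, edgeR adjusted p = 0.0364). The calls of LINC00263 and LBX2-AS1 were lost with no filter on low counts, DESeq2 and only the groups compared. Leaving out shZMYND8 replicate 1 ended the call of ST3GAL4-AS1 (adjusted p = 0.13), leaving out replicate 2 that of MCM3AP-AS1 (0.0696), and leaving out each of the 2 that of ARRDC3-AS1 (0.0788 and 0.0833), APCDD1L-AS1 (0.113 and 0.12), FBXL19-AS1 (0.0941 and 0.157), LBX2-AS1 (0.278 and 0.0541) and LINC00263 (0.253 and 0.0997). APCDD1L-AS1 (0.0572) and FBXL19-AS1 (0.0705) also lost it without shLuciferase replicate 1, and LBX2-AS1 and LINC00263 without shLuciferase replicate 2 (0.0783 and 0.0923), shJARID1D replicate 1 (0.0523 and 0.0567) and shJARID1D replicate 2 (0.056 and 0.0645).

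The falls in shZMYND8 cells were smaller than the largest rises. LINC00482, on chromosome 17 between SLC38A10 and BAHCC1, had 19.4 and 21.2 counts in shZMYND8 cells, against 40.8 and 47.1 in shLuciferase cells. Its log2 fold change was -1.13 ± 0.32 (edgeR adjusted p = 0.041). The call was lost with library totals only, no filter on low counts, DESeq2, limma voom and only the groups compared. LINC00888, now SNHG33, a host of a small nucleolar RNA, had 89.5 and 99.6 counts in shZMYND8 cells and 183 and 159 in shLuciferase cells (log2 fold change -0.85 ± 0.22, edgeR adjusted p = 0.0266). LINC00669 is now MIR924HG, the host gene of a microRNA. It had 42.4 and 54.7 counts in shZMYND8 cells, against 98.4 and 83.2 in shLuciferase cells (log2 fold change -0.89 ± 0.26, edgeR adjusted p = 0.041). AGAP2-AS1 (215 and 220 counts in shZMYND8 cells, 336 and 441 in shLuciferase cells) and PRKCQ-AS1 (193 and 157, against 298 and 299) were the antisense-named RNAs that fell, by 0.83 and 0.76 on the log2 scale. LINC00909 and LINC00654 each fell by 0.69. The calls of LINC00654 and LINC00669 were lost with library totals only, no filter on low counts, DESeq2 and only the groups compared. For all 7 RNAs the shZMYND8 libraries lay below both shLuciferase libraries. That adds no support in RNAs chosen by their calls, and 57.8% of all genes tested had groups that did not overlap. Each of these calls was lost without shZMYND8 replicate 1, and each was lost without shZMYND8 replicate 2. Without a shLuciferase or shJARID1D library the adjusted p of LINC00482, LINC00654, LINC00669 and LINC00888 rose as far as 0.0948, 0.0892, 0.101 and 0.0575.

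In shJARID1D cells 7 members rose and 1 fell against shLuciferase cells, 4.67% and 0.667%, beside 2.96% higher and 2.79% lower among all genes tested (3.24% and 3.4% of genes with a mean count of 50 or more). The members' median log2 fold change was 0.15, against 0.00 over all genes tested. Above 0 lay 96 of the 150, beside 7951 of the 15867 genes tested. Without the 8 members that owe the minimum to 1 group, 6 rose and 1 fell. With scaling by library totals alone the median of all genes moved to 0.09 and that of the members to 0.23. Of the members, 78 (52%) had libraries of the 2 groups that did not overlap, against 51.9% of all genes tested. The counts of calls were 0 higher and 0 lower without shJARID1D replicate 1 (18 and 4 at an unadjusted p under 0.05) and likewise 0 and 0 without shJARID1D replicate 2 (22 and 3). Fewer members were called higher without either shZMYND8 library, though shZMYND8 is not in this comparison. More were called in each direction without shLuciferase replicate 1. The cause of these shifts was not tested. The lower count was 2 without shLuciferase replicate 2. A fit with no filter on low counts called none of the 150 (31 higher and 7 lower at an unadjusted p under 0.05). The main edgeR fit likewise had 31 higher and 7 lower unadjusted, beside 1878 and 1860 of the 15867 genes tested. DESeq2 called 7 members higher and 1 lower and limma voom 6 and 1.

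**Figure D3:**
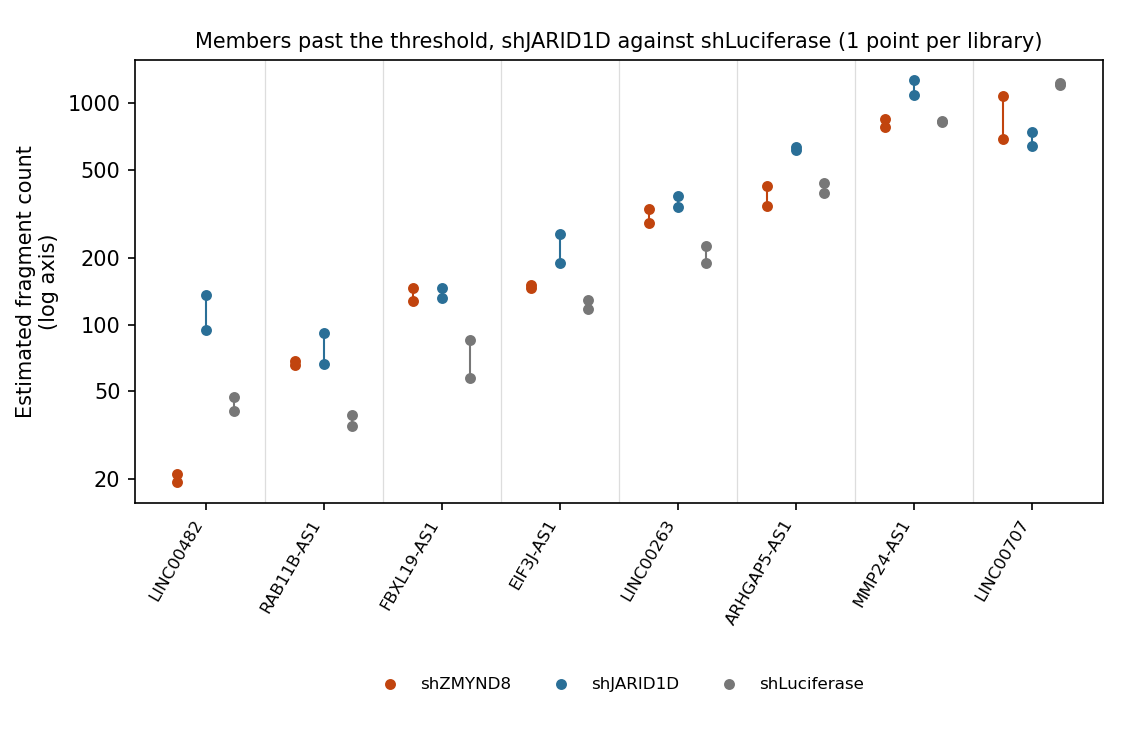
Estimated fragment counts (log axis) of the 8 members past the threshold in shJARID1D against shLuciferase cells, with 1 point per library and the libraries of a group joined by a line. LINC00482 lies at 95.1 and 136 counts in shJARID1D cells, against 19.4 and 21.2 in shZMYND8 cells and 40.8 and 47.1 in shLuciferase cells, while LINC00707 is lower in shJARID1D than in shLuciferase cells.

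LINC00482, a member only through its shJARID1D libraries, had the largest fitted rise among those past the threshold, with 136 and 95.1 counts in shJARID1D cells, against 40.8 and 47.1 in shLuciferase cells (2.63-fold, log2 fold change 1.39 ± 0.28, edgeR adjusted p = 0.0242), a call lost without shJARID1D replicate 1 (adjusted p = 0.204) or shJARID1D replicate 2 (0.0657). RAB11B-AS1 lies opposite the gene of a GTPase of recycling endosomes. It had 91.5 and 66.3 counts in shJARID1D cells and 34.9 and 39.3 in shLuciferase cells (log2 fold change 1.1 ± 0.28, edgeR adjusted p = 0.0497). Its call was lost without each library in turn. It was also lost with relative log expression factors, no filter on low counts, DESeq2, limma voom and only the groups compared. EIF3J-AS1, the divergent transcript of the translation initiation factor gene EIF3J, had 257 and 190 counts in shJARID1D cells, against 130 and 117 in shLuciferase cells (log2 fold change 0.86 ± 0.20, edgeR adjusted p = 0.0394). ARHGAP5-AS1 had 635 and 617 counts in shJARID1D cells, against 438 and 395 in shLuciferase cells (log2 fold change 0.59 ± 0.14, edgeR adjusted p = 0.0416). MMP24-AS1 had 1274 and 1087 counts in shJARID1D cells, against 829 and 819.8 in shLuciferase cells (log2 fold change 0.52 ± 0.13, edgeR adjusted p = 0.0433). In all of these the shJARID1D libraries lay above both shLuciferase libraries, which adds no support in RNAs chosen by their calls. The groups did not overlap for 51.9% of all genes tested. The calls of EIF3J-AS1, ARHGAP5-AS1 and MMP24-AS1 were lost without each library except shLuciferase replicate 1, with adjusted p of 0.0516 to 0.327.

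LINC00707, on chromosome 10 between PRKCQ and SFMBT2, was the member that fell. It had 639 and 739 counts in shJARID1D cells, 691 and 1077 in shZMYND8 cells and 1215 and 1238 in shLuciferase cells (log2 fold change of shJARID1D against shLuciferase -0.83 ± 0.19, edgeR adjusted p = 0.0379). The call was lost without shJARID1D replicate 1 (adjusted p = 0.244) or shJARID1D replicate 2 (0.119). Its shZMYND8 value against shLuciferase did not pass (-0.47 ± 0.19, edgeR adjusted p = 0.121). The shZMYND8 libraries lay below both shLuciferase libraries, in a comparison where 57.8% of all genes tested had groups that did not overlap.

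In both knockdowns 3 members passed the threshold, in comparisons that share the shLuciferase libraries. LINC00482 fell in shZMYND8 cells and rose in shJARID1D cells, while LINC00263 and FBXL19-AS1 rose in each. LINC00263, now OLMALINC, lies beside SCD, the gene of stearoyl-CoA desaturase, and had 332 and 289 counts in shZMYND8 cells, 339 and 382 in shJARID1D cells and 226 and 190 in shLuciferase cells. Its log2 fold changes were 0.58 ± 0.16 in shZMYND8 cells and 0.80 ± 0.16 in shJARID1D cells (edgeR adjusted p = 0.0364 and 0.0252). SCD itself did not pass the threshold in either (log2 fold changes -0.03 ± 0.19 and 0.43 ± 0.20). FBXL19-AS1, opposite FBXL19, whose product binds CpG islands, had 128 and 146 counts in shZMYND8 cells, 132 and 146 in shJARID1D cells and 57.6 and 85.2 in shLuciferase cells. Its log2 fold changes were 0.94 ± 0.24 and 0.96 ± 0.24 (edgeR adjusted p = 0.0254 and 0.0461). Between the knockdowns LINC00263 differed by -0.21 ± 0.16 and FBXL19-AS1 by -0.02 ± 0.23. Without 1 shJARID1D library the adjusted p of the shJARID1D rise was 0.127 and 0.152 for LINC00263 and 0.174 and 0.194 for FBXL19-AS1. Removing a shZMYND8 library gave 0.051 and 0.0531 for LINC00263 and 0.0843 and 0.09 for FBXL19-AS1, which also reached 0.0788 without shLuciferase replicate 1.

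Set directly against shJARID1D cells, shZMYND8 cells had 9 members higher and 15 lower, 6% and 10%, beside 8.67% higher and 7.02% lower among all genes tested (9.8% and 8.02% of genes with a mean count of 50 or more). The members' median difference was -0.11 on the log2 scale, against 0.00 over all genes tested, and 91 members (60.7%) had groups that did not overlap, against 65.4% of all genes tested. Of the 39 LINC members 2 were higher (5.13%) and 7 lower (17.9%), against 6.31% and 7.21% of the 111 antisense-named members. That difference was not tested, and LINC00941 and LINC00482, among those LINC members, owe the minimum to 1 group. Without the 8 that owe the minimum to 1 group, which include PSMD6-AS2 and SAP30L-AS1, 6 were higher and 14 lower. Without 1 library of either knockdown the number higher was 2 in each of the 4 cases and the number lower was 2 to 5. Without shLuciferase replicate 1, or without shLuciferase replicate 2, it was 17 higher and 20 lower.

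LINC00482 had the largest difference among the members, of which it is one only through its shJARID1D libraries. Its 19.4 and 21.2 counts in shZMYND8 cells stood against 136 and 95.1 in shJARID1D cells, a 5.74-fold lower level (log2 fold change -2.52 ± 0.31, edgeR adjusted p = 0.00133), with shLuciferase cells at 40.8 and 47.1 between them. LINC00941 was 3.42-fold higher in shZMYND8 than in shJARID1D cells (log2 fold change 1.77 ± 0.28, edgeR adjusted p = 0.00428) and LINC00842 2.49-fold higher (1.32 ± 0.18, edgeR adjusted p = 0.00243). The calls of these 3 RNAs held without each library in turn. LINC00942 was higher by 0.87 ± 0.26 in shZMYND8 than in shJARID1D cells but did not pass (edgeR adjusted p = 0.051). Among the lower members, LINC00938 had 110 and 104 counts in shZMYND8 cells, against 225 and 226 in shJARID1D cells (log2 fold change -1.07 ± 0.18, edgeR adjusted p = 0.00543, and 0.0599 without shZMYND8 replicate 2). LINC00888 (-1.06), PRKCQ-AS1 (-0.95), LINC00909 (-0.88), LINC00669 (-0.87), SOCS2-AS1 (-0.77), AGAP2-AS1 (-0.74) and DHRS4-AS1 (-0.72) were among the next lower members. LINC00938 apart, each lower member other than LINC00482 lost its call without at least 2 of the 4 knockdown libraries, with adjusted p of 0.0566 to 0.274.

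The other higher members in this comparison were antisense-named. KIAA1984-AS1, now CCDC183-AS1, had 86.6 and 93.2 counts in shZMYND8 cells, 42.5 and 29.8 in shJARID1D cells and 56.3 and 81.0 in shLuciferase cells (log2 fold change against shJARID1D 1.30 ± 0.30, edgeR adjusted p = 0.0192). The shZMYND8 libraries were above the shLuciferase libraries and the shJARID1D libraries below them, but KIAA1984-AS1 passed against shLuciferase in neither knockdown. Its log2 fold changes there were 0.40 ± 0.28 in shZMYND8 cells and -0.90 ± 0.30 in shJARID1D cells (edgeR adjusted p = 0.375 and 0.109). SAP30L-AS1 (1.02), ST3GAL4-AS1 (0.93), PSMD6-AS2 (0.93), AFAP1-AS1 (0.83), ARRDC3-AS1 (0.79) and MCM3AP-AS1 (0.65) followed. Each of these 7 antisense-named members lost its call without any 1 of the 4 knockdown libraries, with adjusted p of 0.0509 to 0.294. PSMD6-AS2 lies just above the minimum count, with 70.1 and 63.5 counts in shZMYND8 cells and 33.8 and 36.0 in shJARID1D cells.

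**Figure D4:**
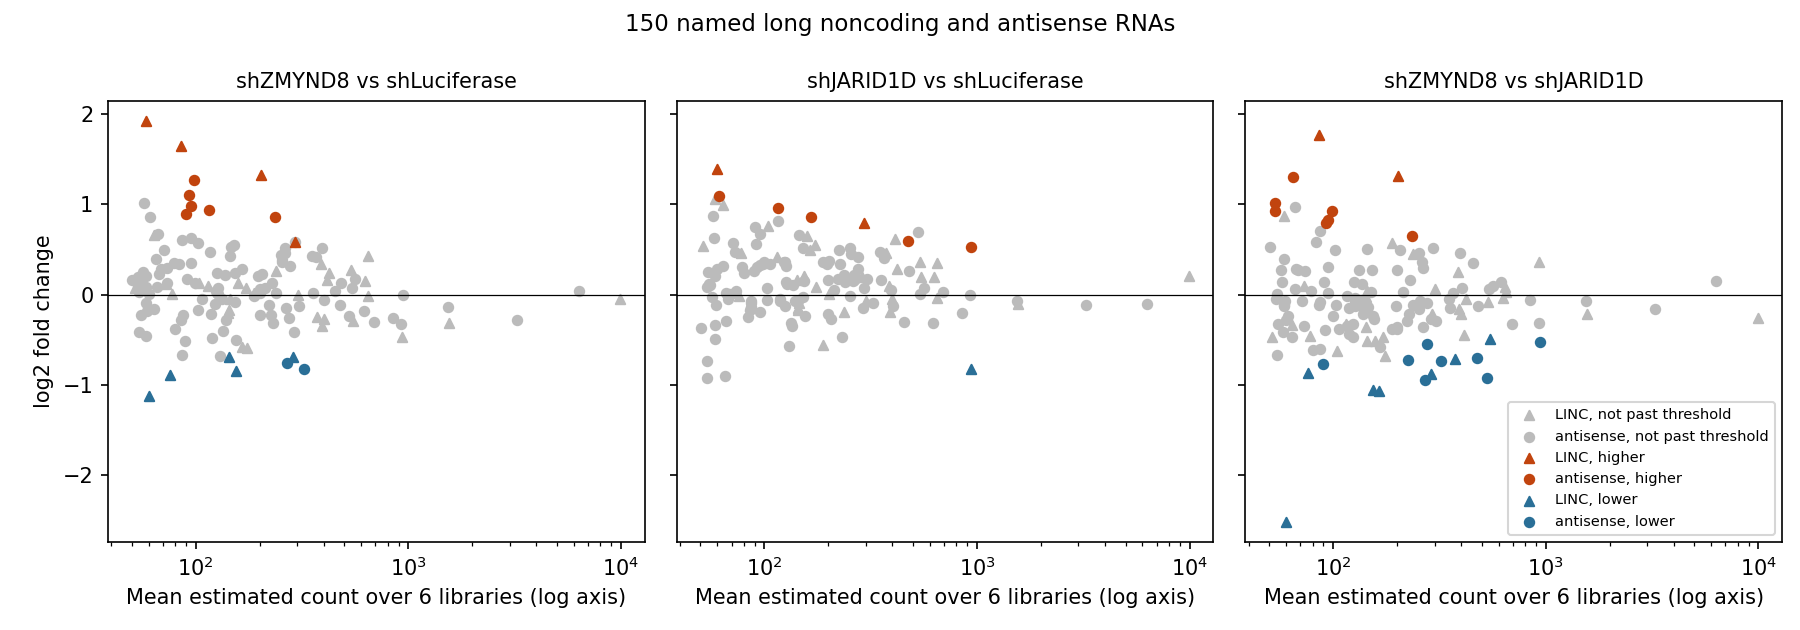
Log2 fold change of the 150 members (vertical axis) against their mean estimated count (horizontal log axis) in the 3 comparisons, with LINC members as triangles and antisense-named members as circles. The largest differences, such as LINC00482 at -2.52 in shZMYND8 against shJARID1D cells, lie toward the left of each panel, and the 5 members above 1000 lie within 0.32 of 0.

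Of the 111 antisense-named members, 106 were named after a gene that was itself tested. The sources used here do not give the strand setting of the libraries, so reads of an antisense RNA and of an overlapping sense gene cannot be told apart, and parallel changes in such pairs are uncertain. In shZMYND8 against shLuciferase cells 8 of these RNAs and 20 of the sense genes passed the threshold, beside 16.2% of all genes tested in either direction. Both rose in 3 pairs, and whether that exceeds what these separate numbers would give was not tested. ARRDC3 had 11647 and 10758 counts in shZMYND8 cells, against 6263 and 3900 in shLuciferase cells (log2 fold change 1.15 ± 0.20, edgeR adjusted p = 0.00556, and 0.0518 without shZMYND8 replicate 1), close in size to the 1.1 of ARRDC3-AS1. APCDD1L had 43.4 and 45.0 counts in shZMYND8 cells, against 7.3 and 14 in shLuciferase cells (2.06 ± 0.53, edgeR adjusted p = 0.0284), beside 0.98 for APCDD1L-AS1. ST3GAL4, the gene of a sialyltransferase, rose by 0.48 ± 0.14 (edgeR adjusted p = 0.0466), beside 1.27 for its antisense RNA. APCDD1L lost its call without shZMYND8 replicate 1 or 2 or shLuciferase replicate 1 (0.133, 0.137 and 0.0873), and ST3GAL4 without each library except shLuciferase replicate 2 (0.064 to 0.323).

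Of the 8 antisense RNAs that passed in shZMYND8 against shLuciferase cells, 5 had no called change in the sense gene. Sense genes mostly lacked a call in any case, since 20 of 106 passed, 17 of them beside an antisense RNA that did not. Across the pairs the log2 fold changes correlated at a Pearson r of 0.373. It was 0.191 in shJARID1D against shLuciferase cells and 0.194 in shZMYND8 against shJARID1D cells. MCM3AP had a log2 fold change of -0.11 ± 0.13 in shZMYND8 cells while MCM3AP-AS1 rose by 0.86, and PRKCQ, the gene of protein kinase C theta, had 0.42 ± 0.14 (edgeR adjusted p = 0.0705) while PRKCQ-AS1 fell by 0.76. FBXL19 had 0.22 ± 0.14 and LBX2 -0.15 ± 0.21. AFAP1, an actin filament gene, had 6918 and 6693 counts in shZMYND8 cells, against 2857 and 2881 in shLuciferase cells (1.25 ± 0.11, edgeR adjusted p = 0.000436), and AFAP1-AS1, inside it, had 0.63 ± 0.24 (edgeR adjusted p = 0.108). In shJARID1D against shLuciferase cells 5 antisense RNAs and 3 sense genes passed, beside 5.75% of all genes tested, in no pair both. EIF3J, beside a rise of 0.86 in EIF3J-AS1, had -0.05 ± 0.12, and RAB11B had 0.12 ± 0.15.

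Between shZMYND8 and shJARID1D cells both members of 5 pairs passed, 4 in the same direction (AFAP1, ARRDC3 and ST3GAL4 higher, SOCS2 lower) and 1 in opposite directions, with 15 of the RNAs and 22 of the sense genes past the threshold beside 15.7% of all genes tested. The opposite pair was MMP24 and MMP24-AS1. MMP24, which encodes a membrane-bound matrix metalloproteinase, had 791 and 971.5 counts in shZMYND8 cells and 539.6 and 499 in shJARID1D cells (log2 fold change 0.76 ± 0.15, edgeR adjusted p = 0.00898), whereas MMP24-AS1, now classed as coding, had 853 and 783.5 counts in shZMYND8 cells and 1274 and 1087 in shJARID1D cells (-0.53 ± 0.13, edgeR adjusted p = 0.0223). In shLuciferase cells MMP24 had 622 and 721 counts and MMP24-AS1 829 and 819.8. Without 1 shJARID1D library the adjusted p of MMP24 was 0.0546 and 0.0877 and that of MMP24-AS1 0.2 and 0.0646, and without shZMYND8 replicate 2 they were 0.0988 and 0.175. MMP24-AS1 also lost its call without shZMYND8 replicate 1 (0.103). In the pairs that moved together AFAP1 kept its call without each library, and ARRDC3, ST3GAL4 and SOCS2 lost theirs without 2 or more of them (adjusted p of 0.0578 to 0.195).

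**Figure D5:**
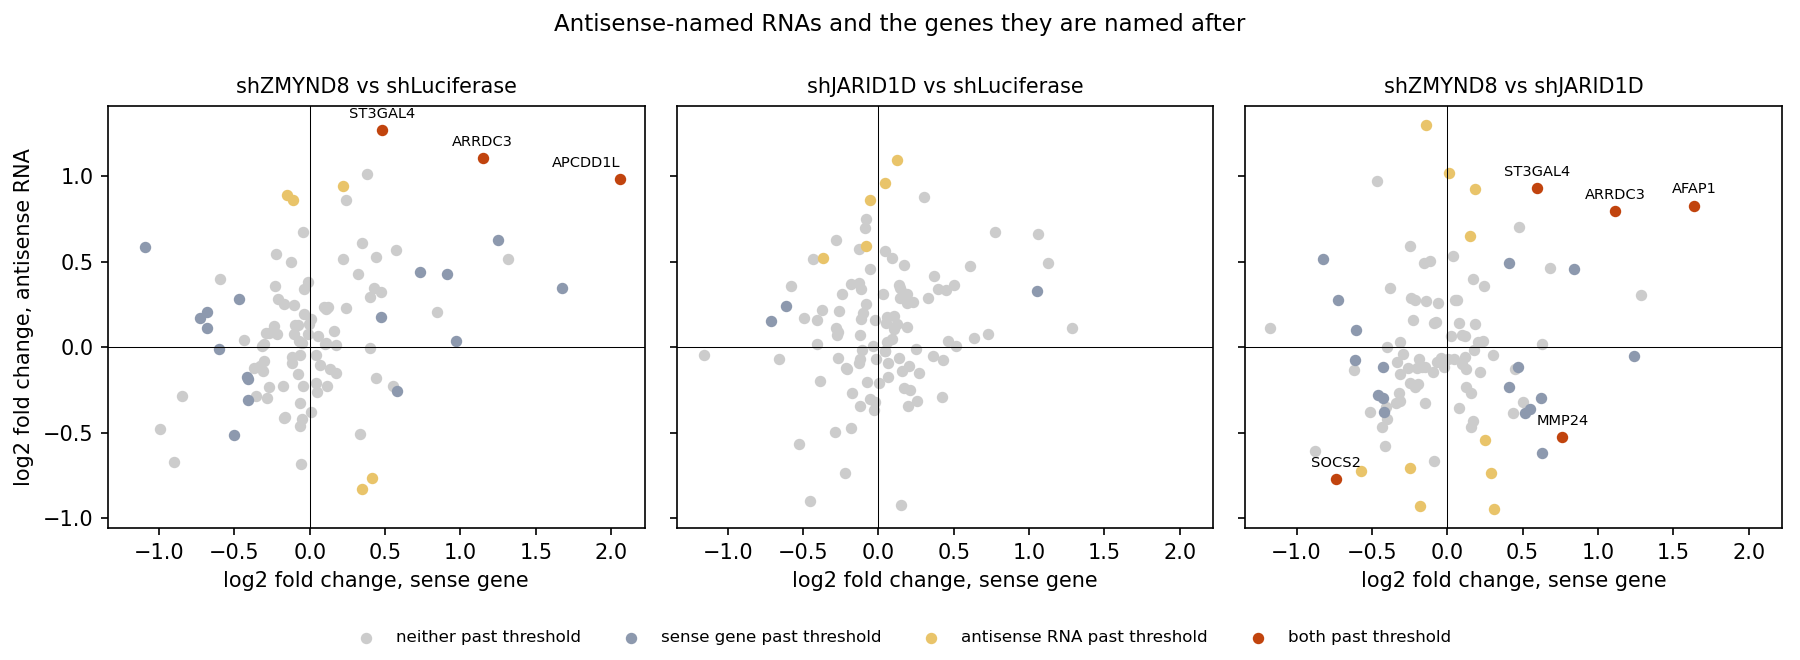
Log2 fold change of 106 antisense-named RNAs (vertical axis) against that of the gene each is named after (horizontal axis) in the 3 comparisons, coloured by which of the pair passed the threshold. Pairs with both past the threshold are labelled with the sense gene: ST3GAL4, ARRDC3 and APCDD1L at the upper right in shZMYND8 against shLuciferase cells, and MMP24 at the lower right in shZMYND8 against shJARID1D cells.

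The nearest protein-coding genes on each side, and those overlapping, gave 344 tested neighbours of members. In shZMYND8 against shLuciferase cells 15.1% of them passed the threshold, beside 16.2% of all genes tested. In shJARID1D against shLuciferase cells the shares were 5.23% of neighbours and 5.75% of all genes tested, and in shZMYND8 against shJARID1D cells 17.4% and 15.7%. NPY4R, the gene of a neuropeptide Y receptor next to LINC00842, had 157 and 157 counts in shZMYND8 cells, 21.9 and 12.8 in shJARID1D cells and 12.6 and 13.0 in shLuciferase cells (log2 fold change against shLuciferase 3.59 ± 0.32, edgeR adjusted p = 0.000436). It has a near-identical copy, which makes its counts uncertain, and its shZMYND8 libraries stood far above the other 4. CAPRIN2, an RNA binding protein gene next to LINC00941, had 715 and 822 counts in shZMYND8 cells, against 474 and 534 in shLuciferase cells (0.61 ± 0.13, edgeR adjusted p = 0.013, lost without shZMYND8 replicate 1 or 2 at 0.0555 and 0.13). TSPAN11, on the other side, had 24.0 and 24.7 counts in shZMYND8 cells, against 5.2 and 12 in shLuciferase cells, and did not pass (1.52 ± 0.64, edgeR adjusted p = 0.136).

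The genes beside other members that moved were of both kinds, some past the threshold and some not. ERC1 and FBXL14, which flank LINC00942, had log2 fold changes of -0.14 ± 0.12 and 0.01 ± 0.23 in shZMYND8 cells. SLC38A10 and BAHCC1, which flank LINC00482, had -0.12 ± 0.14 and -0.11 ± 0.15 in shZMYND8 cells and -0.17 ± 0.14 and -0.41 ± 0.16 in shJARID1D cells. LSS, the gene of lanosterol synthase in the sterol pathway, lies next to MCM3AP-AS1 and fell to 2556 and 2695 counts in shZMYND8 cells, against 4065 and 4803 in shLuciferase cells (-0.75 ± 0.12, edgeR adjusted p = 0.00388, and 0.0583 without shZMYND8 replicate 1). ORAI3, a calcium channel gene next to FBXL19-AS1, rose in shJARID1D cells (822 and 729 counts, against 397 and 446 in shLuciferase cells, 0.88 ± 0.14, edgeR adjusted p = 0.0129), a call lost without shJARID1D replicate 1 or 2 (0.127 and 0.0626). In shZMYND8 cells ORAI3 was at 414 and 363 counts. GALNT10, which overlaps SAP30L-AS1, fell in shJARID1D cells (1298 and 1208 counts, against 2815 and 3219 in shLuciferase cells, -1.26 ± 0.13, edgeR adjusted p = 0.00418, and 0.0509 without shJARID1D replicate 2), and SAP30L-AS1 had -0.92 ± 0.28 there (edgeR adjusted p = 0.0824).

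For context, a list of 57 other named long noncoding RNAs that carry no LINC number or antisense suffix was read from the same fits, and 38 of them were tested. In shZMYND8 cells 2 rose and 5 fell against shLuciferase cells, beside 8.89% higher and 7.34% lower among all genes tested, and the list median was -0.10 beside -0.01 over all genes tested. NEAT1, the scaffold of nuclear paraspeckles, had 4825 and 4162 counts in shZMYND8 cells, 3009 and 2572 in shJARID1D cells and 3138 and 2435 in shLuciferase cells (log2 fold change against shLuciferase 0.70 ± 0.15, edgeR adjusted p = 0.0132, and 0.13 without shZMYND8 replicate 1). HCP5, from the major histocompatibility complex region, rose in each knockdown, by 1.07 ± 0.23 in shZMYND8 cells and 1.29 ± 0.23 in shJARID1D cells (edgeR adjusted p = 0.0123 and 0.0169), with the shLuciferase libraries shared. DLEU2, a microRNA host gene deleted in leukaemia, had 95 and 87.7 counts in shZMYND8 cells, against 203 and 184 in shLuciferase cells (-1.07 ± 0.18, edgeR adjusted p = 0.0046), and MIR31HG, the host of miR-31, had 139 and 118 counts in shZMYND8 cells, against 254 and 242.5 in shLuciferase cells (-0.94 ± 0.17, edgeR adjusted p = 0.00642). HCP5 lost its call without shZMYND8 replicate 1 (0.123) and, in shJARID1D cells, without either shJARID1D library (0.131 and 0.0529), and MIR31HG without shZMYND8 replicate 2 (0.0687). HCP5 was the sole RNA of this list past the threshold in shJARID1D against shLuciferase cells, where 2.96% of all genes tested were higher and 2.79% lower and the list median was -0.06. Between shZMYND8 and shJARID1D cells NEAT1 was the 1 higher RNA of the list (0.69 ± 0.15), beside 8.67% higher and 7.02% lower among all genes tested, and of the 4 lower ones DLEU1 (-0.73 ± 0.14), DLEU2 (-0.83 ± 0.18) and SNHG3 (-0.63 ± 0.12), a host of small nucleolar RNAs, had the smallest adjusted p, each losing its call without any 1 of the 4 knockdown libraries (adjusted p of 0.0521 to 0.149).

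Over the 3 comparisons 33 members passed the threshold at least once and 117 passed in none. These gave 49 calls, none of which changed direction under any of 14 alternative fits and 6 of which held under all of them: LINC00942, LINC00941 and LINC00842 in shZMYND8 against shLuciferase cells, and LINC00482, LINC00941 and LINC00842 in shZMYND8 against shJARID1D cells. Of these RNAs, LINC00842 alone met the rule without the group where it was highest. At a threshold of 0.01, 10 of the 49 remained. Leaving out a library leaves a group with 1 sample, which the fit assumes to vary like the other groups. The median standard error of a member, 0.21 on the log2 scale, sets the size of difference that this depth and 2 libraries a group can show.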

How the data were processed

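Of 35 samples of the series, the 6 RNA-seq libraries were used, while the 29 others (chromatin immunoprecipitation and its inputs) are not used here. The authors deposited a Cuffdiff count-tracking table, per the file headers, which holds expected counts: fragments per gene as estimated, not tallied, by the software. A fragment has a value of 0.882 to 1.16 in a library. Named in the submitters' processing notes, without their roles, are Bowtie 1.1.2, TopHat2 2.0.12, edgeR 3.12.0, Cuffdiff and the build hg19. Not given in the sources used here are strand setting, polyA selection and annotation. Columns named Rac7_KO were taken as shZMYND8, which assumes that Rac7 is RACK7, another name of ZMYND8 per an antibody label.

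Counts were rounded to whole numbers, 60 genes marked as not quantified (HIDATA) were left out, and R 4.3.3 with edgeR 4.0.16 (filterByExpr, TMM factors, quasi-likelihood F test) was applied to 28443 genes and all 6 libraries. The Benjamini-Hochberg method was applied over 15867 genes tested, with a threshold of 0.05. SEs were computed from the log2 fold change and the F statistic of the test. Members, gene lists and tests were chosen with earlier results of these data known. Named were the 10 largest rises and falls past the threshold per comparison, the 5 most abundant members, those at the edge of the minimum count, their sense genes and coding neighbours, and up to 4 other long noncoding RNAs per comparison by smallest adjusted p. Of the neighbours so named, examples are printed. Some genes that the rule or a marker list names are not reported here. Alternatives were relative log expression factors, library totals, no filter, genes averaging 50 counts or more, voom of limma 3.58.1, DESeq2 1.42.0, only the groups compared, a replicate block, each library left out and a threshold of 0.01. The scripts were tested on simulated data.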

Additional observations from a re-analysis of the deposited data

How the results depend on the processing

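The numbers of members past the threshold moved by over 1.5 times under several settings, and the cause was not tested. In shZMYND8 against shLuciferase cells, 10 higher and 7 lower became 19 and 13 with a replicate block. They became 4 and 0 at a threshold of 0.01. At an unadjusted p under 0.05, 19 members were lower, beside 2430 of the 15867 genes tested. The 7 lower became 4 with library totals only, with no filter, with DESeq2 and with only the groups compared. Leaving out each library gave 4 to 14 higher and 0 to 8 lower. In shJARID1D against shLuciferase cells, 7 higher and 1 lower became 15 and 1 with the block, 2 and 1 with only the groups compared, and 0 and 0 with no filter or at 0.01 (31 and 7 unadjusted), with 0 to 9 and 0 to 3 when each library was left out. In shZMYND8 against shJARID1D cells, 9 higher and 15 lower became 14 and 18 with the block, 16 and 20 with only the groups compared, and 2 and 4 at 0.01. The 9 higher became 5 with library totals only, with no filter and with DESeq2, and leaving out each library gave 2 to 17 higher and 2 to 20 lower. Relative log expression factors, a mean count of 50 or more and limma voom kept all 6 numbers within 1.5 times. The replicate block rests on a number alone: same-numbered libraries of 2 groups had deviations that correlated at 0.092 to 0.17, so the numbers were not taken as pairs. Of 49 calls of single members, 28 held under every alternative fit that kept all libraries, and 10 at a threshold of 0.01. Leaving out the 8 members that owe the minimum count to 1 group, an alternative chosen after seeing the data, kept all 6 numbers within 1.5 times. Groups of 2 and counts near 100 limit what can be detected.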
